A study of Canis lupus familiaris with 8 samples.

Results

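The ETS transcription factors are a family of DNA-binding proteins, and 10 of their genes were followed here in stretched epithelial cells: ETS1, ETS2, ETV1, ETV4, ETV5, ETV6, ELF3, EHF, ELK1 and ELK3. They were taken by symbol from a count table of 37952 genes, where all 10 were found and all 10 passed the filter on low counts. Messenger RNA had been sequenced from MDCK GII cells, an established dog kidney epithelial line, grown overnight as monolayers on a collagen-coated elastic membrane. In the stretch group (4 wells) the membrane was held under an equal in-plane strain of 18% in both directions for 2 hours before lysis. The control group (4 wells) was not strained. All wells came from 1 cell line, and the labels call them technical quadruplicates spread at random over separate devices, so the p-values measure the spread between wells of a single line. The series title concerns the activation of EGFR and ERK signalling by force on E-cadherin, and the comparison asks whether ETS transcripts differ after strain.

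ETS factors share a winged helix domain that binds DNA around a GGAA core. Many are end points of the ERK pathway: ERK phosphorylates ETS1 and ETS2 and thereby strengthens their activity, and it phosphorylates the ternary complex factors ELK1 and ELK3, which sit with the serum response factor SRF on immediate-early promoters. The PEA3 group (ETV1, ETV4, ETV5) is itself transcribed when ERK relieves repression by Capicua (CIC), so its mRNA is often read as a slower output of the pathway. ELF3 and EHF are ETS factors of epithelia, and ETV6 is a repressor.

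Of the 10 members, ETS2 had the largest difference and was the only one whose stretch wells all lay above all control wells, at 1.45-fold the control level. It did not pass the test over all genes in the fit without a block or in the fit with a replicate block. ETS1 was 1.17-fold higher. It passed with the replicate block but not without a block, and with the block not when pair 1, 2 or 4 was left out. ELF3 was 1.16-fold higher without passing. The other 7 members, among them the whole PEA3 group and the ternary complex factors ELK1 and ELK3, had fold values between 0.922 and 1.04.

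Total counts lay between 27047358 and 32478887 per well. Epithelial markers were at high levels in all wells, with a summed level over 9 genes of 6061 to 6823 CPM in control and 6385 to 6562 CPM in stretch wells. Of the leukocyte markers, PTPRC, CD3E and ITGAM had no count in any well, and the summed level over 5 markers was at most 0.993 CPM. The 5 endothelial markers summed to at most 2.37 CPM and the 6 markers of fibroblasts and smooth muscle to at most 2.03 CPM. Differences are log2 changes, stretch minus control, from edgeR's quasi-likelihood test over 14571 genes, adjusted by the Benjamini-Hochberg method. Levels are in CPM, read counts scaled to library size by the TMM method, or in RPKM, which also divides by exon length and is used wherever genes are compared with each other. In bulk RNA, fewer cells that make a transcript and less of it per cell cannot be told apart.

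ETS2, on chromosome 31 (33521018 to 33540235, plus strand), encodes a factor that ERK phosphorylates and whose gene is often induced by growth factors. Its level was 83.7, 70.6, 94.3 and 76.0 CPM in control replicates 1 to 4 and 114, 129, 108 and 119.6 CPM in stretch replicates 1 to 4. No stretch well overlapped a control well, which held for 1.3% of all tested genes in this direction and for 2.55% in either direction. The mean went from 81.2 ± 10.3 to 118 ± 8.99 CPM (SD, n = 4 each), a log2 change of 0.54 ± 0.09 (SE), with a 95% confidence interval of 0.35 to 0.72. The unadjusted p was 4.25e-05 and the adjusted p was 0.114 (edgeR, no block). In this fit 0 of 14571 genes (0%) passed an adjusted p of 0.05, 579 (3.97%, with 2.22% higher and 1.76% lower) had an unadjusted p under 0.05, and DESeq2 called 38. Among the members, 2 had an unadjusted p under 0.05 in this edgeR fit, ETS2 and ELF3, both higher.

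The replicate block, which compares wells of the same number, gave ETS2 the same log2 change of 0.54 with a larger SE of 0.114 and an adjusted p of 0.206 (edgeR). The differences within the pairs were 0.44, 0.87, 0.20 and 0.65 for replicates 1 to 4. All 4 pairs were higher after stretch, and pair 3 differed least: its control well was the highest of the controls and its stretch well the lowest of the stretch wells. ETS2 passed without control replicate 3 (log2 change 0.62, edgeR without a block, adjusted p = 0.0109), but not when any other single well was left out. With the block it passed without pair 3 (0.65, adjusted p = 1.5e-05) and without pair 2 (0.43, adjusted p = 0.0247). It did not pass with the block without pair 1 or pair 4 (edgeR, adjusted p = 0.289 and 0.453). It also passed in DESeq2's test without the block (adjusted p = 3.9e-05) and with it (adjusted p = 0.0145). In all, ETS2 passed in 7 of the 23 alternatives tried. Over all of them, its log2 change lay between 0.43 and 0.65 and its adjusted p between 1.5e-05 and 0.453.

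**Figure D1:**
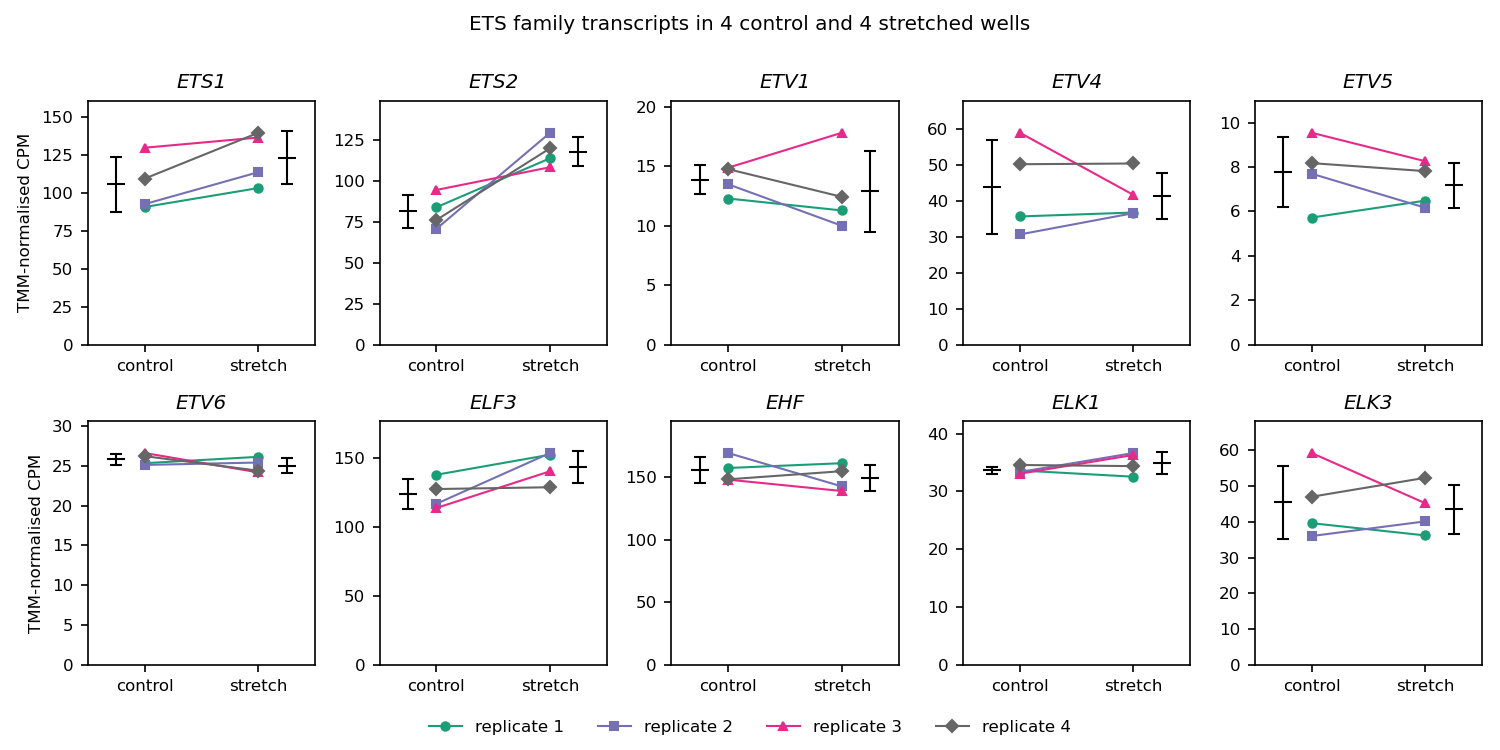
Normalised read counts (TMM-normalised CPM, linear axis from 0) of the 10 ETS family members in control and stretch wells; lines join wells of the same replicate number, and black bars give the mean ± SD of 4 wells. ETS2 is the only panel in which the stretch wells (108 to 129 CPM) all lie above the control wells (70.6 to 94.3 CPM).

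ETS1, on chromosome 5 (6084005 to 6215159, plus strand), is the closest relative of ETS2 and shares its ERK-responsive domain. It had 90.8, 92.7, 129.9 and 109.6 CPM in control replicates 1 to 4 and 103, 114, 137 and 139.8 CPM in stretch replicates 1 to 4. The groups overlapped, because control replicate 3 was above stretch replicates 1 and 2, but each stretch well was above the control well of its own number. The pair differences were 0.19, 0.30, 0.07 and 0.35 on the log2 scale.

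The mean of ETS1 went from 106 ± 18.2 to 123 ± 17.7 CPM (n = 4 each). Its log2 change was 0.22 ± 0.13 without a block (edgeR, adjusted p = 0.9995) and 0.23 ± 0.048 with the replicate block (edgeR, adjusted p = 0.0332). It was the only member of the 10 called with the block, where 0.7% of all tested genes were called with 0.528% higher and 0.172% lower. The call did not hold without pair 1, 2 or 4 (adjusted p = 0.198, 0.139 and 0.211, edgeR with the block) and was kept without pair 3 (adjusted p = 8.1e-04). With a block of only 2 levels, replicates 1 and 2 against 3 and 4, its adjusted p was 0.0516.

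Levels of the relatives were also compared within each well, as the log2 ratio of their RPKM values. The ratio of ETS2 to ETS1 was 0.26 ± 0.18 in control and 0.57 ± 0.26 in stretch wells (SD, n = 4 each), a difference of 0.31 that was higher in 4 of 4 pairs. It did not pass a two-sided exact permutation test (p = 0.114, adjusted over the 4 ratios examined 0.229). The smallest p that 4 against 4 wells allow is 0.0286.

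Both ETS factors of epithelia among the members were abundant. ELF3, on chromosome 7 (1087488 to 1093399, minus strand), had 138, 117, 114 and 128 CPM in control replicates 1 to 4 and 152, 154, 140.4 and 129 CPM in stretch replicates 1 to 4. The groups overlapped, since stretch replicate 4 was below control replicate 1, and all 4 pairs were higher by 0.14, 0.39, 0.30 and 0.01 on the log2 scale. Its log2 change was 0.21 ± 0.07 (95% confidence interval 0.06 to 0.37), with an unadjusted p of 0.011 and an adjusted p of 0.9995 without a block and 0.115 with it (edgeR). ELF3 passed with the block when pair 4 was left out (0.28, edgeR, adjusted p = 0.0377) and in DESeq2 with the block (adjusted p = 0.049).

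EHF, on chromosome 18 (33588643 to 33630942, minus strand), is the other epithelial member. It had 157, 169, 148 and 148 CPM in control replicates 1 to 4 and 161, 143, 139 and 155 CPM in stretch replicates 1 to 4, with overlapping groups and 2 pairs higher and 2 lower. Its log2 change was -0.06, with a 95% confidence interval of -0.19 to 0.07 (edgeR, no block). The within-well log2 ratio of EHF to ELF3 was -1.04 ± 0.16 in control and -1.32 ± 0.16 in stretch wells (n = 4 each), a difference of -0.27 (two-sided exact permutation p = 0.0857, adjusted 0.229). It was lower in 3 of 4 pairs. Stretch replicate 4 (-1.11) was the only stretch well inside the range of the control wells (-1.18 to -0.84). Without it the difference was -0.34 (exact permutation p = 0.0286, the smallest that 4 against 3 wells allow). That p was fixed by the choice of the well, and no other well left out gave a larger difference, so it adds no support.

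No gene of the PEA3 group passed the test in either fit. ETV4, on chromosome 9 (19591463 to 19606744, plus strand), was the most abundant of the group, with 35.7, 30.7, 59.0 and 50.2 CPM in control replicates 1 to 4 and 36.8, 36.6, 41.7 and 50.4 CPM in stretch replicates 1 to 4. Stretch replicate 3 was below its control by 0.50 on the log2 scale, pair 2 was higher by 0.25, and pairs 1 and 4 differed by 0.04 and 0.01. Its log2 change was -0.08 ± 0.21 without a block and -0.06 ± 0.12 with it (edgeR, adjusted p = 0.9995 and 0.957), and the sign turned without control replicate 3 (0.09). An exon of ETV4 overlaps an uncharacterised gene on the opposite strand, and the strand setting of the count is not stated, so its level is uncertain.

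ETV5, on chromosome 34 (18900890 to 18960409, minus strand), had 5.73, 7.70, 9.55 and 8.18 CPM in control replicates 1 to 4 and 6.49, 6.17, 8.26 and 7.82 CPM in stretch replicates 1 to 4. ETV1, on chromosome 14 (28710474 to 28803817, minus strand), had 12.3, 13.5, 14.9 and 14.8 CPM in control replicates 1 to 4 and 11.3, 10.0, 17.8 and 12.4 CPM in stretch replicates 1 to 4. Both had overlapping groups, with 3 of 4 pairs lower. Their log2 changes were -0.12 ± 0.16 for ETV5 and -0.10 ± 0.16 for ETV1, and neither passed with the block (edgeR, adjusted p = 0.891 and 0.835). The 95% confidence intervals with the block reached up to 0.13 for ETV5, 0.09 for ETV1 and 0.24 for ETV4 on the log2 scale. The within-well log2 ratio of ETV5 to ETV4 was -3.20 ± 0.32 in control and -3.26 ± 0.15 after stretch (n = 4 each; two-sided exact permutation p = 0.857, adjusted 0.857).

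Neither ternary complex factor among the members passed the test in either fit. ELK1, on chromosome X (41458515 to 41473055, minus strand), had 33.6, 33.4, 33.1 and 34.6 CPM in control replicates 1 to 4 and 32.6, 36.6, 36.3 and 34.4 CPM in stretch replicates 1 to 4, and its log2 change was 0.05 with a 95% confidence interval of -0.08 to 0.19 (edgeR, no block). ELK3, on chromosome 15 (36246490 to 36311229, plus strand), encodes a factor that represses until ERK phosphorylates it. It had 39.7, 36.1, 59.3 and 47.1 CPM in control replicates 1 to 4 and 36.2, 40.2, 45.2 and 52.3 CPM in stretch replicates 1 to 4. As in ETV4, pair 3 had the largest difference, lower by 0.39, and control replicate 3 was the highest well. Its log2 change was -0.06 ± 0.16 without a block and -0.05 ± 0.088 with it (edgeR, adjusted p = 0.9995 and 0.942).

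The within-well log2 ratio of ELK3 to ELK1 was -0.14 ± 0.32 in control and -0.25 ± 0.22 after stretch (n = 4 each; two-sided exact permutation p = 0.629, adjusted 0.838). The repressor ETV6, on chromosome 27 (11589902 to 11826246, plus strand), had 25.3, 25.1, 26.6 and 26.2 CPM in control replicates 1 to 4 and 26.1, 25.4, 24.2 and 24.4 CPM in stretch replicates 1 to 4. The 8 wells of ETV6 spanned a narrow range, and its log2 change was -0.05 with a 95% confidence interval of -0.18 to 0.09 (edgeR, no block).

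**Figure D2:**
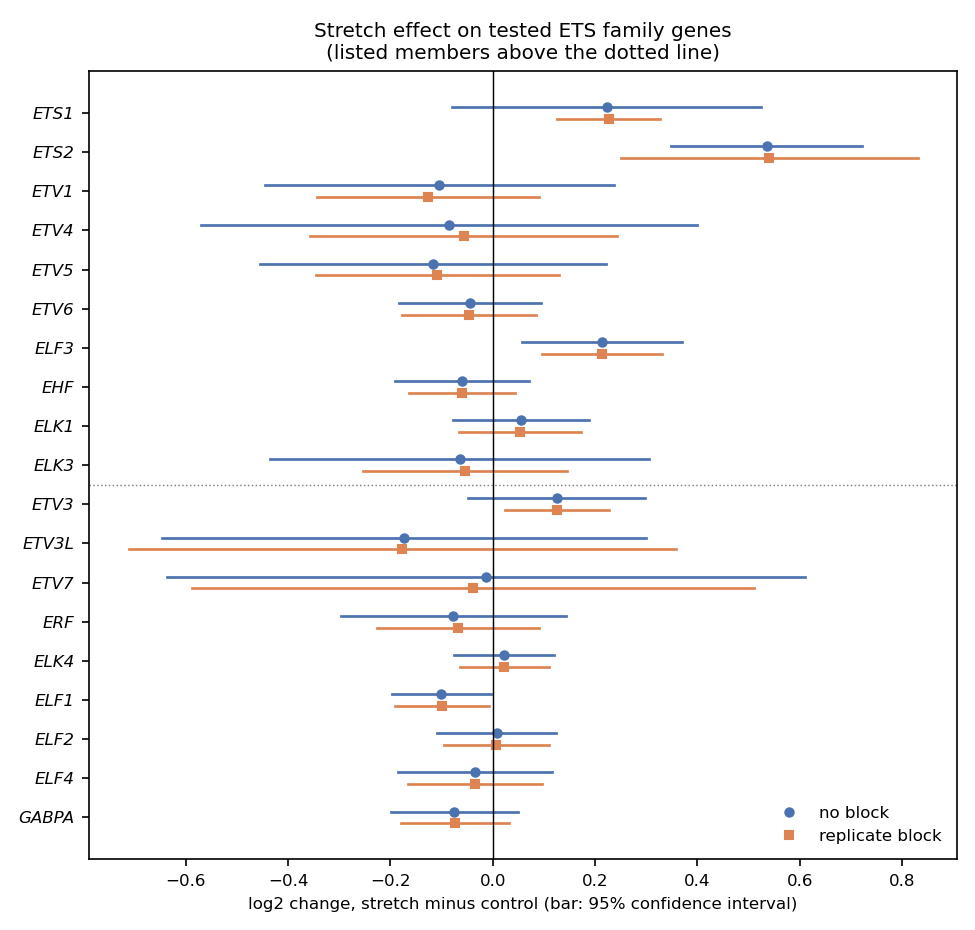
Log2 change after stretch with its 95% confidence interval for the 10 members (above the dotted line) and the 9 other ETS family genes that were tested, from edgeR without a block (circles) and with the replicate block (squares). ETS2 lies farthest from 0 (0.54), and ETS1 and ELF3 follow at 0.22 and 0.21. The interval of ETS1 includes 0 without the block (-0.08 to 0.53), and the intervals of the other 7 members include 0 in both fits.

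Counted over the 10 members, 1 was called higher and 0 lower with the replicate block, and 3 had an unadjusted p under 0.05 there (ETS1, ETS2 and ELF3, all higher), against 8.89% of all tested genes, 4.99% higher and 3.9% lower. The same 3 members were higher in 4 of 4 pairs, and 0 were lower in 4 of 4 pairs, against 8.45% and 7.84% of all tested genes. The median log2 change was -0.05 over the members and -0.0032 over all tested genes, with 4 members above 0 and 6 below.

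Wells of replicates 3 and 4 differed from those of replicates 1 and 2 in several members, whatever their treatment. In ETV4 the 4 wells of replicates 3 and 4 had 41.7 to 59.0 CPM and the 4 wells of replicates 1 and 2 had 30.7 to 36.8 CPM. ELK3 had 45.2 to 59.3 CPM against 36.1 to 40.2 CPM, and ETV5 had 7.82 to 9.55 CPM against 5.73 to 7.70 CPM. In these 3 of 10 members every well of replicates 3 and 4 lay above every well of replicates 1 and 2. Among all tested genes 10.4% lay above and 9.93% below in this way, together 20.4%. ETS2 showed no such division (76.0 to 119.6 CPM against 70.6 to 129 CPM). Within replicates 1 and 2 alone the log2 change of ETS2 was 0.65 (edgeR, 2 wells against 2, adjusted p = 0.00273) and within replicates 3 and 4 alone it was 0.43 (adjusted p = 0.126). For ETS1 these values were 0.24 and 0.21, and for ELF3 they were 0.27 and 0.16, with no adjusted p under 0.05.

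Per exon length, ELF3 was the most abundant ETS transcript of the line, at 58.4 ± 5.16 RPKM in control and 67.7 ± 5.48 RPKM in stretch wells (n = 4 each). EHF followed with 28.3 ± 1.82 RPKM in control wells. ETS2 had rank 4 in control wells with 22.0 ± 2.78 RPKM, behind ELF1 with 23.5 ± 0.416 RPKM, and rank 2 in stretch wells with 31.9 ± 2.44 RPKM. ETS1 had 18.5 ± 3.17 RPKM and ETV4 had 17.8 ± 5.28 RPKM in control wells.

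ELK1, ELK3 and ETV6 had 12.0, 11.1 and 10.0 RPKM in control wells, while ETV1 and ETV5 were far lower at 2.02 and 1.90 RPKM. In the control order from ELF1 (rank 3) down to ETV6 (rank 14), neighbouring genes overlapped in the range of their control wells. Compared within each control well, however, ETS2 was above its neighbour ETS1 in all 4. The control ranges of ELF3 and EHF did not overlap, nor did those of EHF and ELF1, of ETV6 and ELF4, or of ELF4 and ETV1. ETV1 and ETV5 overlapped each other.

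**Figure D3:**
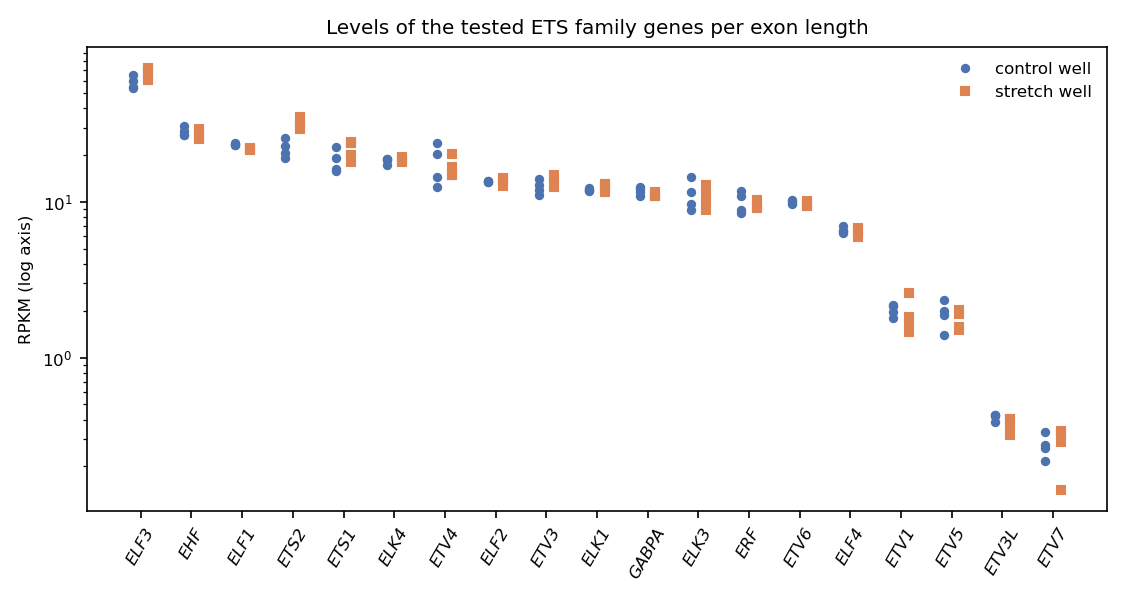
RPKM (log axis) of the 19 tested ETS family genes in each control well (circles) and stretch well (squares), ordered by the control mean. ELF3 is highest at 58.4 RPKM in control wells, ETS2 moves from 22.0 to 31.9 RPKM, and ETV1 and ETV5 lie near 2 RPKM.

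The remaining 18 genes of the family give the setting of the 10. Of these, 6 had no count in any well (ERG, FLI1, FEV, SPDEF, SPI1 and SPIC), which allows a level of up to 0.111 CPM per well, counting error only. SPI1 is known from blood cells, and FLI1 and ERG from blood and endothelial cells. A further 3 (ETV2, SPIB and ELF5) had at most 10 counts and were not tested. Of the 9 tested, 0 were called in either fit, against 0% of all tested genes without a block and 0.7% with it. The median log2 change of the 9 was -0.03.

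ELF1, a widely expressed factor and the most abundant of these 18, had 88.7, 89.9, 91.3 and 87.6 CPM in control replicates 1 to 4 and 83.3, 82.3, 83.2 and 84.7 CPM in stretch replicates 1 to 4. Every stretch well lay below every control well, which held for 1.24% of all tested genes. The log2 change was only -0.10 ± 0.05 and did not pass (edgeR, adjusted p = 0.9995 without the block and 0.502 with it). ETV3, a repressor, was higher in 4 of 4 pairs, from 52.9 ± 5.19 to 57.7 ± 5.04 CPM (n = 4 each), a log2 change of 0.12 ± 0.08 (edgeR, adjusted p = 0.9995 without the block and 0.398 with it). Exons of ELF1 and ETV3 each overlap 1 gene on the opposite strand.

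Genes that act on ETS factors showed little difference. The list of 18 partners and regulators includes the kinases MAP2K1 and MAP2K2, the partner SRF, the repressor CIC with ATXN1 and ATXN1L, the ubiquitin ligase parts COP1 and DET1, and coactivators. All 18 were tested and 0 were called in either fit, against 0% of all tested genes without a block and 0.7% with it. The log2 changes of the 18 ran from -0.12 to 0.10 with a median of -0.01 (edgeR, no block). CREBBP, a histone acetyltransferase and coactivator, had the smallest p with the block. It went from 81.6 ± 1.25 to 76.0 ± 4.12 CPM (n = 4 each), lower by 0.10 on the log2 scale (adjusted p = 0.525, edgeR, replicate block). SRF was 34.2 ± 5.78 and 36.6 ± 5.64 CPM, with a difference of 0.10 on the log2 scale (adjusted p = 0.649, edgeR, replicate block).

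Of the known outputs of ERK, CIC and the PEA3 factors, 13 of the 14 tested had a positive log2 change, as did 7018 of all 14571 tested genes. The list was chosen with earlier results of these data known, so the count of 13 may follow in part from the choice. Of 15 listed, 14 were tested, 1 was called higher and 0 lower with the block, 0 were called without it, and the median log2 change was 0.44. Of the 14, 9 were higher in 4 of 4 pairs. Over all tested genes, 0.528% were called higher with the block, 8.45% were higher in 4 of 4 pairs, and the median was -0.0032. The called gene was DUSP6, which encodes the phosphatase that inactivates ERK. It rose from 79.8 ± 23.2 to 113 ± 24.7 CPM (n = 4 each), by 0.52 ± 0.069 on the log2 scale (adjusted p = 0.0061 in edgeR with the block, 0.9995 without it). Its adjusted p was 0.058 when pair 1 was left out and 0.619 with the block of 2 levels (edgeR). So DUSP6 rose while ETV4 and ETV5, which are read as outputs of the same pathway, did not pass in either direction. Whether DUSP6 and these genes differ in their response was not tested.

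Of the targets of the ternary complex factors, all 14 listed were tested and all 14 had a positive log2 change, with a median of 0.60. Among all 14571 tested genes 7018 had a positive log2 change. This list was also chosen with earlier results of these data known, so the count of 14 may follow in part from the choice. With the block 2 were called higher and 0 lower, without it 0 were called, and in 6 every stretch well lay above every control well. Over all tested genes, 0.528% were called higher with the block and 1.3% had every stretch well above every control well. The called genes were EGR1 and ATF3. EGR1, an immediate-early zinc finger factor, rose from 223 ± 23.7 to 299 ± 43.9 CPM (n = 4 each), by 0.42 on the log2 scale (adjusted p = 0.00169 in edgeR with the block, 0.716 without it, 0.0668 with the block of 2 levels). ATF3, a stress-induced bZIP factor, rose from 50.8 ± 15.1 to 77.4 ± 26.0 CPM (n = 4 each), by 0.59 on the log2 scale (adjusted p = 1.6e-04 in edgeR with the block, 0.9995 without it).

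Targets of ETS1, ETS2 and the epithelial members made a list of 20, of which 14 were tested. MMP3, HGF and CDKN2A had no count in any well. All 14 had a log2 change above 0, as did 7018 of the 14571 tested genes, and the median of the 14 was 0.19. The choice of this list, too, was made with earlier results of these data known. With the block 2 were called higher and 0 lower, against 0.528% of all tested genes called higher, and without it 0 were called. TGFBR2, the type II TGF-beta receptor and a target of ELF3, rose from 89.1 ± 4.23 to 103 ± 5.39 CPM (n = 4 each) with no overlap between the groups. The difference was 0.22 ± 0.043 on the log2 scale (adjusted p = 0.021 in edgeR with the block, 0.567 without it). Left out in turn, pairs 1, 2 and 4 brought its adjusted p to 0.21, 0.0625 and 0.0569 (edgeR with the block). CFLAR, an inhibitor of caspase 8, rose from 52.6 ± 4.19 to 64.4 ± 5.67 CPM (n = 4 each), by 0.29 ± 0.047 on the log2 scale (adjusted p = 0.00456 in edgeR with the block, 0.567 without it, 0.0788 with the block and without pair 1).

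**Figure D4:**
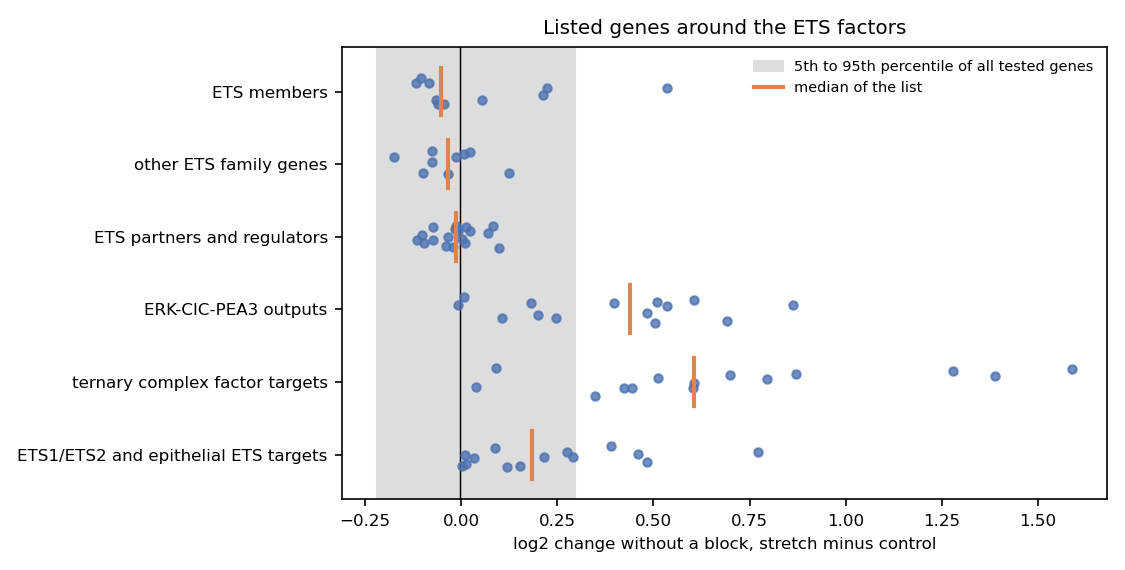
Log2 change without a block for each tested gene of the 6 lists (points, spread vertically for legibility), with the median of each list (bar), the median of all tested genes (black line) and their 5th to 95th percentile (grey, -0.22 to 0.30). The ETS members have a median of -0.05 with ETS2 apart at 0.54, while the ERK outputs and ternary complex factor targets have medians of 0.44 and 0.60.

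The genes whose level most resembled that of ETS2 were SIK1, NR4A1, TP53INP2, IFRD1 and FOSL2, taken from 13125 genes of at least 1 CPM by Pearson r of log2 CPM over the 8 wells. Their r lay between 0.948 and 0.98 (Spearman rho 0.857 to 0.976), and between 0.893 and 0.981 without the 2 wells farthest from the median of ETS2. These are the highest values of many and the wells fall into 2 groups, so they describe likeness only and carry no p. SIK1, a salt-inducible kinase gene, had 11.4 to 15.7 CPM in control and 20.8 to 30.2 CPM in stretch wells, a log2 change of 0.82 (edgeR, adjusted p = 0.0937 without the block, the smallest of all genes in that fit, and 0.094 with it). NR4A1, an immediate-early nuclear receptor gene, had 10.2 to 20.7 CPM in control and 25.8 to 49.8 CPM in stretch wells, a difference of 1.28 on the log2 scale (edgeR, adjusted p = 0.567 without the block and 0.535 with it). It also stands among the targets of the ternary complex factors.

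IFRD1, a transcriptional coregulator gene, was the only one of the 5 called with the block, with 222 to 253 CPM in control and 278 to 295 CPM in stretch wells (0.28 on the log2 scale; adjusted p = 0.00194 in edgeR with the block, 0.114 without it, 0.058 with the block and without pair 1). TP53INP2 and FOSL2, an AP-1 subunit gene, differed by 0.31 and 0.47 on the log2 scale (adjusted p = 0.16 and 0.296 in edgeR, replicate block). As in ETS2, pair 2 had the largest and pair 3 the smallest difference in all 5, an order that their choice by likeness to ETS2 over the same wells largely fixes. In SIK1 these differences were 1.41 and 0.40, in NR4A1 2.28 and 0.32, and in ETS2 0.87 and 0.20 on the log2 scale.

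**Figure D5:**
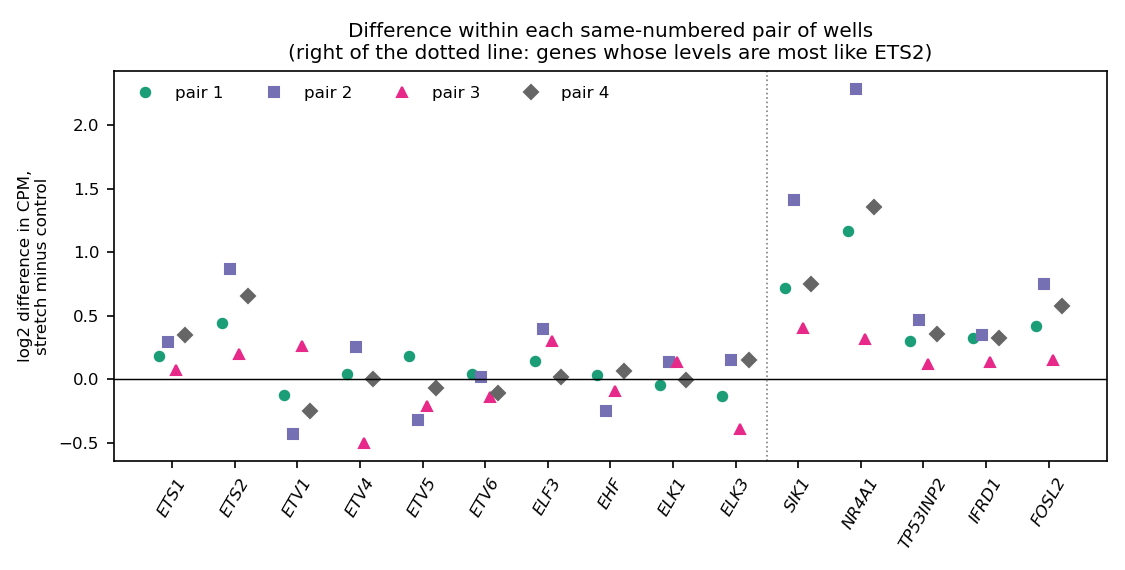
Log2 difference in CPM, stretch minus control, within each of the 4 same-numbered pairs of wells, for the 10 members and, right of the dotted line, the 5 genes most like ETS2. In ETS2 and in these 5 genes pair 2 has the largest and pair 3 the smallest difference, while in ETV4 and ELK3 pair 3 is the lowest (-0.50 and -0.39).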

How the data were processed

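The authors deposited raw read counts, 1 value per gene and well. Per the submitters' processing notes, FastQC 0.11.8, Trim Galore 0.6.5, STAR 2.7.3a, Subread and featureCounts were used by the authors. The genome build, the strand setting and the handling of shared reads are not given in the sources used here. Libraries were polyA-selected and strand-specific, per the labels. Coordinates are those of the deposited table, and chromosome numbers come from the RefSeq table of dog assembly UU_Cfam_GSD_1.0, where 35647 of 37246 matched symbols had identical start and end positions. The table also gives exon length, another deposited value, used for RPKM. It held 0 columns of no sample.

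Counts were tested in R 4.3.3 with edgeR 4.0.16 (TMM, filterByExpr with a minimum count of 10 and a minimum total of 15, robust glmQLFit, glmQLFTest) over all genes, with a threshold of 0.05 and a model of intercept and stretch. Wells of a group differed by 5.56 to 26.8 in chi-square per degree of freedom (genes of 50 counts or more), so none was a copy. Same-numbered wells deviated together from their group means in all 4 pairs (r across genes 0.108 to 0.328), so the replicate number was treated as pairing and the blocked value is given beside each result whose call it changes. The pairing comes from the titles. The labels do not say what a number shares, and only 1 number matched its own partner best. The mean r was 0.199 for same-numbered wells and 0.18 with 1 and 2 swapped and 3 and 4 swapped. So r hardly separates pairing by number from the split of replicates 1 and 2 against 3 and 4. Calls made only with the block rest on this pairing.

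The alternatives were DESeq2 1.42.0, limma-voom (limma 3.58.1), other scalings and filters, both blocks, replicates 1 and 2 or 3 and 4 alone, and leaving out wells or pairs. Named were all members, other ETS genes with an unadjusted p under 0.05 in either fit or the highest RPKM, listed genes called with the block (or the 2 with the smallest p), and the 5 genes most like ETS2 (log2 CPM, prior count 2). Members and lists were chosen with earlier results of these data known. The fits were tested on simulated data. Figures used matplotlib 3.10.9.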

Additional observations from a re-analysis of the deposited data

Results flagged for a closer look

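Among the 48 groups of 4 wells of the 24 named genes, 1 well stood apart from the other 3 by the ratio of its gap to the range. For FOSL2, one of the genes most like ETS2, the level was 327.7 CPM in control replicate 3 and 251.8 to 261.9 CPM in the remaining controls. Chance gives about 2.4 such wells in 48 groups. Without this well the log2 change of FOSL2 was 0.57 (edgeR without a block, adjusted p = 0.0144) in place of 0.47 (adjusted p = 0.422). In no group of 4 wells of the 10 members did a well stand apart by this measure.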

How the results depend on the processing

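The number of genes called depended on the model, with 0 in edgeR without a block. It was 102 with the replicate block, 58 with the block of 2 levels, 51 within replicates 1 and 2, 25 within replicates 3 and 4, 38 in DESeq2, 140 in DESeq2 with the block and 11 without the low-count filter. Leaving out 1 well gave 0 to 12 and leaving out 1 pair with the block gave 43 to 186. Of the 10 members, 0 were called without a block, 1 with the replicate block (ETS1), 1 within replicates 1 and 2, 1 in DESeq2 and 1 without the filter (ETS2 in these 3), and 3 in DESeq2 with the block (ETS1, ETS2 and ELF3). Leaving out 1 well gave 0 to 1 members and leaving out 1 pair with the block gave 0 to 2. Limma-voom, both other scalings and the stricter filter called 0 genes (550 to 622 at an unadjusted p under 0.05). The replicate block changed no other call among the members.

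ETS1, ETS2, ETV5, ELF3 and ELK1 kept their direction under all 23 alternatives. The sign turned for ETV1 within replicates 3 and 4 (0.032) and for ETV4, ETV6 and ELK3 within replicates 1 and 2 (0.15, 0.031 and 0.013). Leaving out pair 3 with the block turned ETV4 and ELK3 (0.096 and 0.062), and EHF ranged from -0.10 to 0.0053 over the pairs left out, turning without pair 2. Leaving out single wells gave -0.30 to 9.0e-04 for ETV1, -0.22 to 0.09 for ETV4 and -0.16 to 0.089 for ELK3. The ratio of ETV5 to ETV4 moved between -0.12 and 0.10, that of ELK3 to ELK1 between -0.21 and 0.038, and that of EHF to ELF3 between -0.34 and -0.21 when 1 well was left out. With 4 complete pairs, the mean of the pair differences equals the difference of the group means by arithmetic. The replicate block therefore could not move the differences in the 4 ratios, which stayed at 0.31, -0.05, -0.27 and -0.11. The cause of these turns was not tested. The least abundant member, ETV5, had 156 to 282 counts per well.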
